A study of Homo sapiens and Mus musculus with 4 samples.

Results

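The 4 myogenic regulatory factor genes, MYF5, MYF6, MYOD1 and MYOG, carried TEAD peaks around all 3 of the places where they lie in the genome, in human RD cells and in mouse YAP-ERMS cells alike. A peak was counted for a gene when its midpoint lay within 150 kb of the gene's start, a window of 300 kb. MYF6 lies just upstream of MYF5 and shares its window, so the 4 genes give 3 loci. The rule found 31 of the 22681 peaks of RD and 41 of the 47033 peaks of YAP-ERMS. These are 0.137% and 0.0872% of the lists.

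TEAD proteins are DNA-binding factors of the Hippo pathway that act with the co-activator YAP1, and in muscle they bind M-CAT elements. The myogenic regulatory factors are basic helix-loop-helix proteins that bind E-boxes. MYF5 and MYOD1 are known for committing cells to the muscle lineage, MYOG drives terminal differentiation, and MYF6, also called MRF4, acts in both early and late steps. Embryonal rhabdomyosarcoma is a tumour with features of skeletal muscle in which cells express such factors without completing differentiation. The MYF5 and MYF6 genes are known for enhancers spread over a long upstream region, and MYOD1 for a core enhancer and a distal regulatory region upstream of it.

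The data were 4 chromatin immunoprecipitation sequencing (ChIP-seq) libraries, 1 in each group, read through 1 deposited peak list for each cell type. RD is a human embryonal rhabdomyosarcoma cell line, whose TEAD library was set against an IgG library. YAP-ERMS are mouse cells from tumours driven by YAP under Myf5-Cre or Pax7-CreER, whose TEAD library was set against input chromatin. The labels do not tell which of the drivers gave the cells profiled, nor the age, sex or strain of the mice, nor which TEAD protein the antibody binds. Myf5-Cre marks cells with activity of Myf5, itself one of the genes described here, and Pax7-CreER marks satellite cells. All groups were crosslinked with formaldehyde, and no group was given another treatment in the labels. With 1 library in a group no difference between the cell types has a replicate check, and none was tested. No file used here gives the number of reads in a library.

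Each peak has a deposited score, the authors' own value, read as 10 times the negative log10 of its p-value. It is used here to order peaks within a list and not to compare the lists. The median score was 189 over the RD list and 205 over the YAP-ERMS list. Gene starts were known to 1 kb, so every distance at a locus can be off by the same amount, up to 0.5 kb. Distances between peaks of the same list are not affected. Where distances are compared between the lists, the errors of both starts enter. Upstream and downstream follow the direction of transcription.

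The promoters of MYOG and MYF5 are shown because they contrast in both cell types: a peak lay beside the MYOG start, and the midpoint nearest to the MYF5 start was more than 10 kb away. They are the 250 bases before the human gene start in RefSeq (GRCh38.p14), MYOG from the minus strand of chr1:203086013-203086262 and MYF5 from the plus strand of chr12:80716662-80716911. These positions are not on the same build as those of the peaks. Capitals mark E-boxes (CANNTG, which reads the same on both strands).
MYOG: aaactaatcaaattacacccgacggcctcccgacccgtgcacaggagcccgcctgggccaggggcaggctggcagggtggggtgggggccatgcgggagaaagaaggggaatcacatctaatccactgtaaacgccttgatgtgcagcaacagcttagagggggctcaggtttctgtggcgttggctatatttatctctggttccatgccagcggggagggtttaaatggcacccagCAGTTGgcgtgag
MYF5: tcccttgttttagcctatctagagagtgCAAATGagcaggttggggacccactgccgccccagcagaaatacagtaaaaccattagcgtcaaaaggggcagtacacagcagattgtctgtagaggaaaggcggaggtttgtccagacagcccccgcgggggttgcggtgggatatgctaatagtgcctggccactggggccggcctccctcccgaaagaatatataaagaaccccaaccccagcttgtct
The MYOG promoter holds the E-box CAGTTG starting 13 bases before the start, and the MYF5 promoter holds CAAATG starting 222 bases before it. An E-box was present in 61.8% of the 35116 RefSeq promoters of this length. The M-CAT core GGAATG, searched on both strands, was in 11.9% of all promoters, and the AP-1 site TGANTCA in 6.57%. Neither was found in these 250 bases of MYOG, MYF5 or MYF6, and the MYF6 promoter held none of the 3 motifs. The promoter of MYOD1 was not analysed here. A match or its absence describes only these letters in this window. By the start as given, the RD peak beside MYOG lay 0.238 to 0.765 kb upstream, so most of it fell outside these 250 bases. The start is known only to 1 kb, and no peak sequence or mouse promoter was searched. The motif search therefore does not describe the sequence under the peaks.

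The first question was how many peaks each locus held and how that compares with the rest of the same list. MYOG was the richest locus in RD, with 17 peaks, ahead of MYF5 with MYF6 at 8 and MYOD1 at 6. In YAP-ERMS the order was different, with 16 peaks at MYF5 with MYF6, 14 at MYOG and 11 at MYOD1. For a background, each chromosome was divided into windows of 300 kb between its first and last peak, 9761 in RD and 8533 in YAP-ERMS. In RD, at least as many peaks as at MYOG were found in 0.625% of all windows, as many as at MYF5 with MYF6 in 7.73%, and as many as at MYOD1 in 13.4%. In YAP-ERMS these shares were 9.70% for MYOG, 6.27% for MYF5 with MYF6 and 17.9% for MYOD1. Each of the 6 counts was thus above that of most windows, and the MYOG locus of RD stood near the top of its list. The median window held 1 peak in RD and 4 in YAP-ERMS. These windows lie anywhere on the chromosomes. Windows around the starts of other genes, which need gene positions of hg19 and mm9, were not analysed here, so it is not known whether the loci hold more peaks than other genes do.

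**Figure D1:**
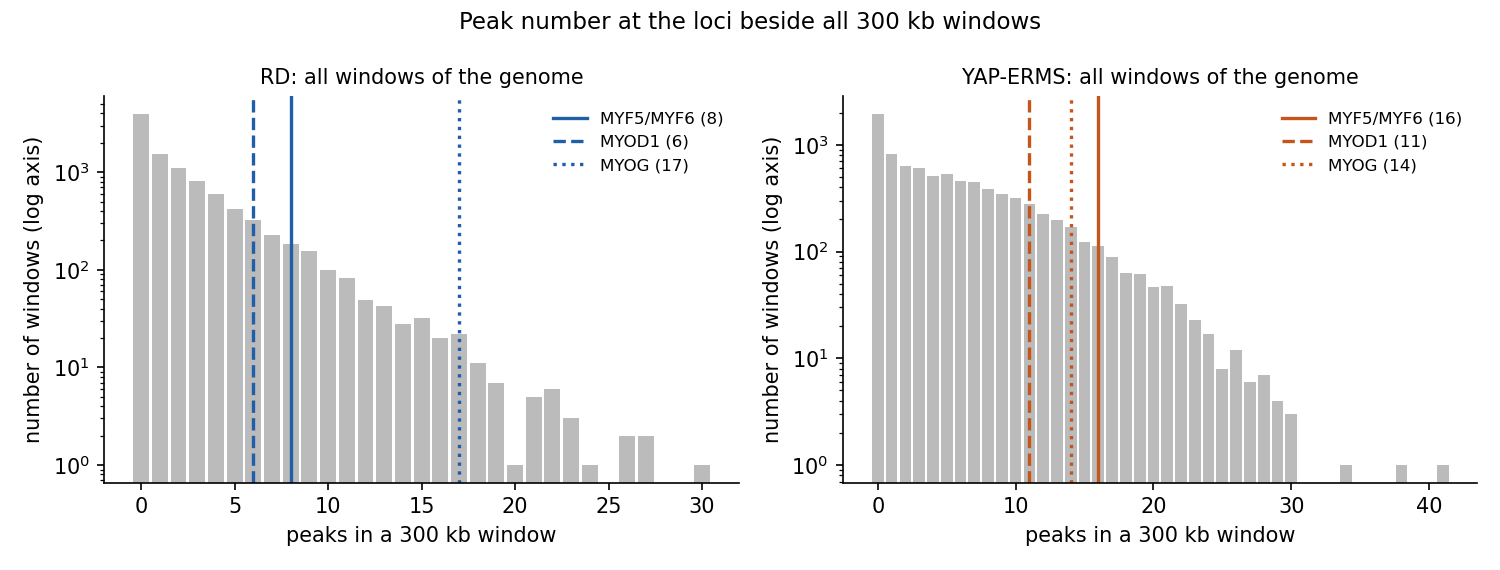
Number of 300 kb windows (vertical log axis) by the number of TEAD peaks they hold (horizontal axis), for RD on the left and YAP-ERMS on the right, with the 3 loci as vertical lines. In RD the MYOG line at 17 stands far to the right, where 0.625% of windows reach, and in YAP-ERMS the lines at 11, 14 and 16 lie close together.

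The MYF5 start had no peak midpoint within 10 kb in either cell type, and the highest scoring peaks of the locus lay at different distances in the 2 lists. All distances here are from the MYF5 start. In human GRCh38.p14 the 250 bases before MYF6 end at chr12:80707633 and those before MYF5 at chr12:80716911. Human MYF6 thus starts less than 10 kb upstream of MYF5. Distances of peaks to the MYF6 start were not measured. The mouse spacing was not measured either, and the upstream peaks of YAP-ERMS nearest to Myf5 may be nearer to Myf6. In RD a group of 5 peaks lay 118 to 137 kb upstream of the MYF5 start (chr12:80973866-80993082, hg19) and included the highest scoring RD peak of any of the loci. That peak was at chr12:80987330-80988094, 123 kb upstream, with a score of 1149, and 4.05% of RD peaks scored as high. Around it lay peaks with scores of 622 at 137 kb, 133 at 131 kb, 90.6 at 129 kb and 185 at 118 kb. The 5 peaks spanned 19.2 kb and were 1 of the 350 clusters of 5 or more closely spaced peaks in RD. A single weak peak with a score of 81.8, close to the lowest score of the list, lay 68.2 kb upstream. Downstream a pair of peaks lay 11.1 and 12.6 kb from the start, with scores of 316 and 344 (chr12:81121874-81122343 and chr12:81123432-81123828). The MYF5 start thus fell in a peak-free stretch of 79.3 kb between the weak upstream peak and the downstream pair. Stretches at least that long made up 31.2% of those between neighbouring RD peaks, each counted once. A given position falls more often in a long stretch, so this share does not rank the stretch around the start among positions. The median RD position taken every 10 kb lay 97.4 kb from its nearest peak, against 11.1 kb for the MYF5 start. Beyond the pair the next RD peak downstream came after 898 kb. Stretches that long or longer made up 2.53% of all, again each counted once. Among protein-coding genes LIN7A is the next downstream of MYF5 and PTPRQ the next upstream of MYF6. Distances to these genes were not measured, and the upstream group of 5 peaks may lie nearer to PTPRQ than to MYF5. Just outside the window, the next RD peak at 152 kb upstream belonged to another cluster of 5 peaks. RD peaks numbered 8 within 150 kb of the MYF5 start and 16 within 300 kb.

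In YAP-ERMS the highest scoring peak of the Myf5 and Myf6 locus lay much nearer, 18.4 kb upstream of the Myf5 start at chr10:106938628-106942141 (mm9). Its score of 2420 was the highest of all 41 YAP-ERMS peaks described here and ranked 341 in the list, where 0.725% of peaks scored as high. At 3514 bp it was also the widest of them, 1.82 times the median width of YAP-ERMS peaks of like score. Between it and the Myf5 start lay peaks with scores of 274 at 14.9 kb and 118 at 12.03 to 12.97 kb. A second high-scoring region lay far upstream, with a score of 924 at 117 kb (chr10:107038026-107039441) and 1015 at 131 kb (chr10:107052233-107053255). The latter began a cluster of 5 peaks over 22.1 kb, of which 4 fell inside the window. In between, peaks with scores of 264 at 57.9 kb and 255 at 83.7 kb stood above the list's median. Downstream the nearest peak lay 10.3 kb from the start with a score of 153, and peaks with scores of 195 and 185 lay 126 and 136 kb away. The remaining 6 peaks of the window scored between 85.8 and 113. In both cell types, therefore, the region 117 to 131 kb upstream held peaks and a peak lay 10 to 11 kb downstream. The highest scoring YAP-ERMS peak, at 18.4 kb, had no RD peak at a like distance, since the nearest RD peak upstream of the MYF5 start was the weak one at 68.2 kb.

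MYOD1 had peaks on its upstream side in both cell types and none beyond its start on the other side. In RD all 6 peaks lay upstream, and all 6 scored above the list's median, which 50% of the list does by construction. The highest scoring were 3 neighbours 31.3 to 35.9 kb upstream, together in 5.33 kb (chr11:17704684-17710009, hg19). Their scores were 739 at 31.3 kb, 647 at 33.0 kb and 490 at 35.9 kb, so the score was higher the closer the peak was to the gene within this trio. The first of these is the highest at the locus, and 9.45% of RD peaks scored as high. A pair of almost touching peaks lay 69.1 and 69.6 kb upstream, with scores of 330 and 377. The nearest to the gene was a single peak 4.87 kb upstream (chr11:17735968-17736296), with a score of 209. No RD peak was listed at the MYOD1 start itself, and the next peak on the downstream side lay 254 kb away.

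In YAP-ERMS, 10 of the 11 Myod1 peaks lay upstream and the last lay over the gene start. Of these, 8 formed 1 cluster of 40.1 kb that ran from 38.9 kb upstream up to the start (chr7:53592389-53632471, mm9). Its highest scores were 1112 at 38.9 kb, 1083 at 26.7 kb and 776 at 23.3 kb upstream, and 6.05% of YAP-ERMS peaks scored as high as the first. The peak at 26.7 kb (chr7:53603892-53606617) was 2726 bp wide, 1.82 times the median at its score. Scores of 448 at 34.6 kb and 117 at 36.8 kb filled the far end of the cluster, and a score of 94.8 at 10.8 kb was its lowest. Close to the gene, a peak 5.43 kb upstream (chr7:53626108-53627026) had a score of 546.5, and the peak over the start (chr7:53631391-53632471) had a score of 159. A peak at least as near as that last one was found for 0.271% of positions taken every 10 kb. That share rests on a distance of 0.0695 kb, finer than the precision of the start. With the start moved by 0.5 kb the distance was 0.43 or 0.57 kb. Farther out, scores were 286 at 59.3 kb, 120 at 61.2 kb and 142 at 75.4 kb. The next peak downstream lay 156 kb from the start, just outside the window.

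Both lists thus placed a MYOD1 peak at about 5 kb upstream and several farther out. There the ranges overlapped only in part, 31.3 to 35.9 kb in RD and 34.6 to 38.9 kb in YAP-ERMS. No peak midpoint lay in the 150 kb downstream in either list. Among human protein-coding genes KCNC1 is the next on the downstream side and OTOG the next upstream. Distances to these genes were not measured, and some peaks of the window may lie nearer to OTOG than to MYOD1. One-sided windows are not rare among sparse ones. Of the 326 RD windows with exactly 6 peaks, 16.6% had all of them on 1 side of the centre. Of the 279 YAP-ERMS windows with exactly 11 peaks, 3.23% did, although there the peak over the start leaves the count resting on where the start is placed. This background was chosen after the positions had been seen.

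MYOG differed from the other loci in having peaks directly beside its start in both cell types. In RD a peak with a score of 358 lay at chr1:203055239-203055765 (hg19), from 0.238 to 0.765 kb upstream of the start as given. A peak at least as near was found for 0.744% of positions taken every 10 kb. It was followed upstream by peaks with scores of 148 at 1.73 kb, 211 at 5.16 kb and 334 at 6.20 kb, and these 4 peaks lay within 6.18 kb. In YAP-ERMS the peak beside the start lay at chr1:136185836-136186849 (mm9), from 0.151 to 1.17 kb upstream, and its score of 120 was below the list's median. For YAP-ERMS 2.45% of positions had a peak as near. Both shares would shift with the start, which is known only to 1 kb. It too was followed by upstream neighbours, with scores of 602 at 5.29 kb (chr1:136180703-136182716), 220 at 7.16 kb and 358 at 13.5 kb. The order of scores was not the same. In RD the peak beside the start was the highest of the 4 near peaks, and in YAP-ERMS it was the lowest of its 4. The long noncoding RNA MYOPARR, which is known to be transcribed from the MYOG promoter region, neighbours MYOG in RefSeq, so the peak cannot be tied to 1 of these genes by position. Among protein-coding genes ADORA1 is the next upstream of human MYOG and PPFIA4 the next downstream. Distances to these 2 genes were not measured, and other peaks of the window may lie nearer to them than to MYOG.

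Farther from the gene, the RD peaks at MYOG were many but of moderate score. The highest of the 17 scored 472 and lay 127 kb downstream, and 18.9% of RD peaks scored as high. At least that score was reached in 26.0% of RD windows. Other peaks above the list's median lay upstream at 120 kb (score 449), 87.0 kb (394) and 40.6 kb (356), and downstream at 47.4 kb (420). Weaker named peaks had scores of 184 at 66.7 kb and 163 at 112 kb upstream, and of 85.6 at 33.9 kb downstream, which was the nearest on that side. The other 6, among them the peak at 1.73 kb, scored between 84.8 and 148. In all 8 of the 17 scored above the list's median, which is close to the 50% of the whole list. The locus therefore stood out by its number of peaks and not by their scores. None of the 17 belonged to a cluster of 5 or more, since the peaks were spread over the window in groups of 2 to 4. Outside the window RD peaks were sparse, with the next 427 kb upstream and 274 kb downstream.

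The YAP-ERMS window around Myog held 7 peaks upstream and 7 downstream. Its highest score, 857, was reached 94.2 kb upstream (chr1:136092092-136093412), and 9.60% of YAP-ERMS peaks scored as high. Downstream the highest was a score of 588 at 83.9 kb (chr1:136270253-136271450). The nearest downstream peak, at 30.6 kb, had a score of 116, and others named on that side scored 121 at 42.7 kb, 235 at 48.9 kb, 116 at 116 kb and 177 at 125 kb. The remaining 3 scored between 83.0 and 110. No downstream peak lay closer than 30 kb in either cell type. The gene start was thus flanked by peaks on its upstream side, and on its downstream side the first peak came after 30.6 kb (YAP-ERMS) and 33.9 kb (RD).

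**Figure D2:**
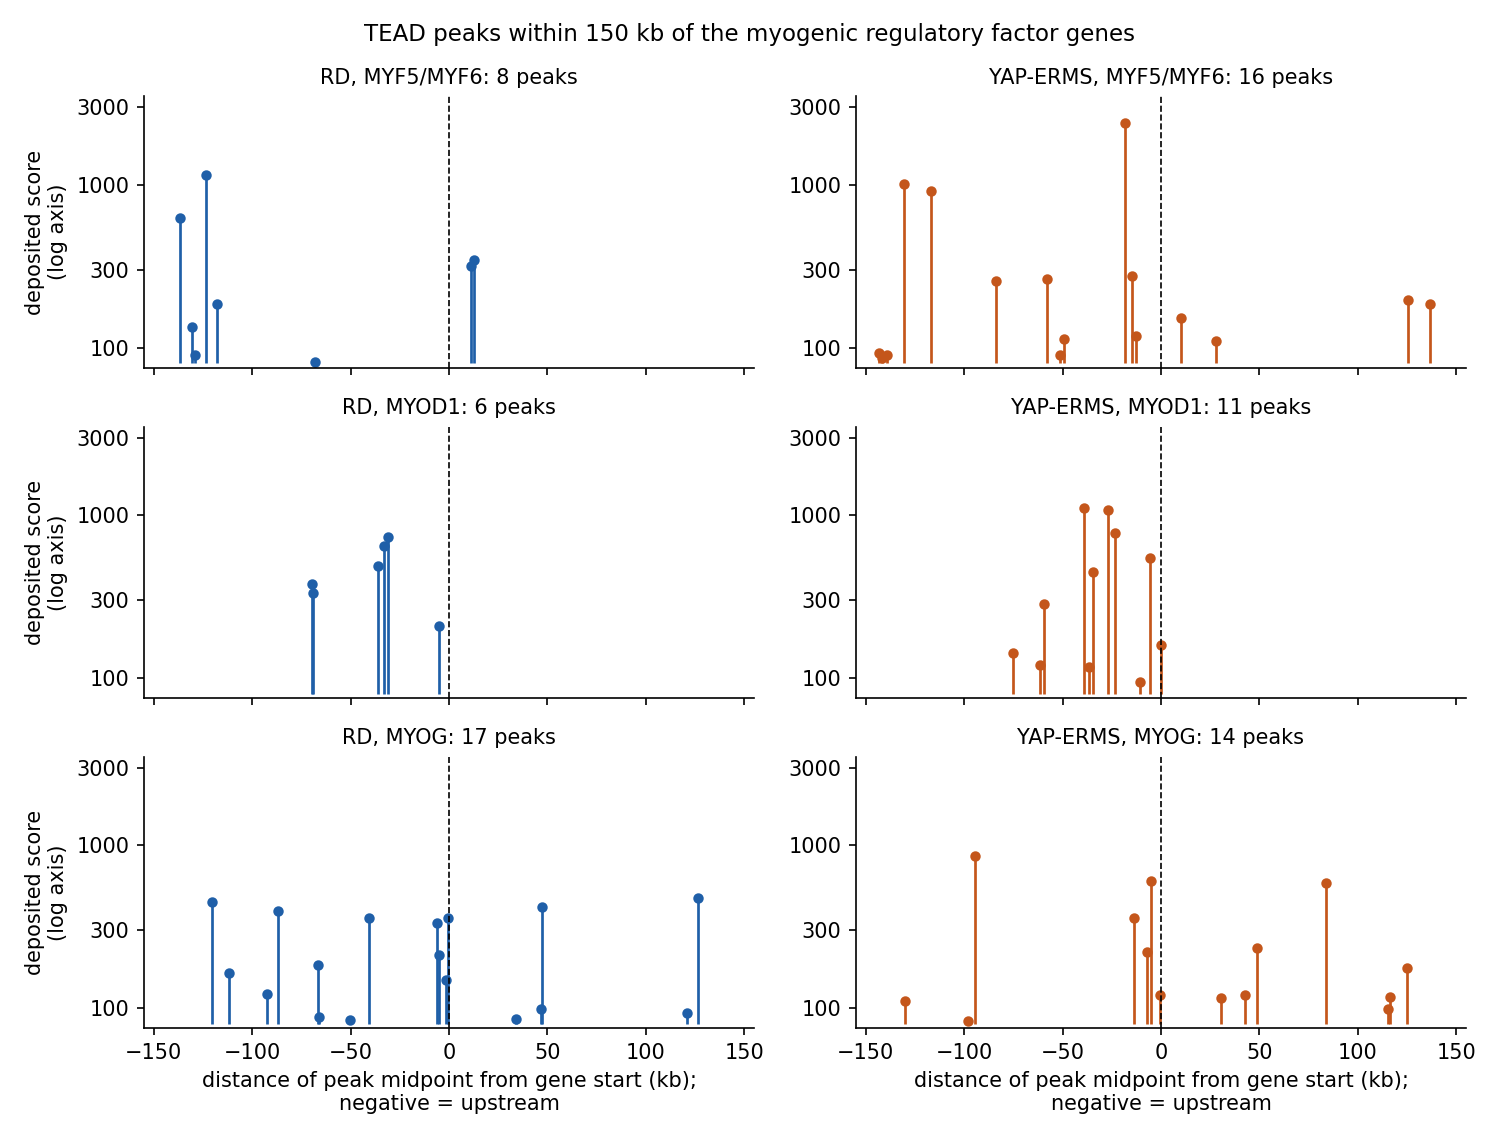
TEAD peaks by the distance of their midpoint from the gene start in kb (horizontal axis, negative upstream) and their deposited score (vertical log axis), with 1 panel for each locus and cell type. MYOD1 has no peak beyond its start on the downstream side in either column, and the highest point, with a score of 2420, is the YAP-ERMS peak 18.4 kb upstream of Myf5.

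Near the starts, the number of peaks by locus depended on the distance chosen. Within 10 kb of the start MYOG had 4 peaks in RD and 3 in YAP-ERMS, MYOD1 had 1 and 2, and MYF5 had 0 and 0. The 0 of YAP-ERMS rests on the precision of the start, since the near edge of its nearest peak was 9.87 kb away and its midpoint came to 9.82 kb with the start moved by 0.5 kb. Within 20 kb MYOG had 4 and 4 peaks, MYOD1 1 and 3, and MYF5 2 and 4. Counts for MYF5 do not cover the surroundings of the MYF6 start. By nearest peak, MYOG came before MYOD1 in RD. In YAP-ERMS the order of Myod1 and Myog rests on the precision of the starts. Moved by 0.5 kb, these gave 0.43 or 0.57 kb for Myod1 and 0.158 or 1.16 kb for Myog. A count of 0 here means that no peak passed the authors' p-value limit and not that TEAD was absent. The nearest peaks of MYF5, at distances of 11.1 kb (RD) and 10.3 kb (YAP-ERMS), were not unusually near: 12.4% and 25.5% of positions taken every 10 kb had one as close. For MYOD1 in RD, with its peak at 4.87 kb, that share was 6.20%.

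**Figure D3:**
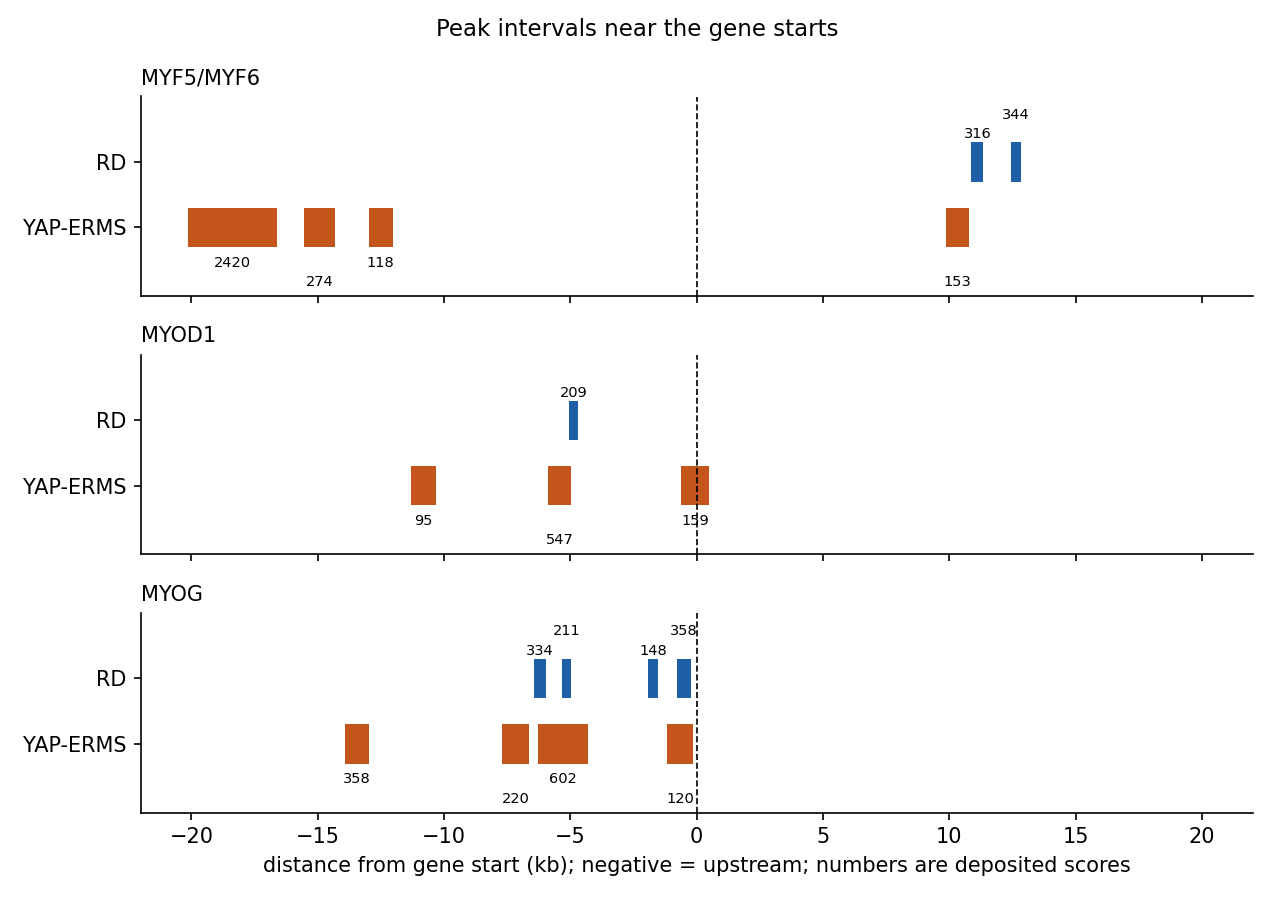
Peak intervals within 22 kb of each gene start, drawn to scale along the distance in kb (negative upstream), with RD above and YAP-ERMS below and the deposited score beside each interval. Intervals of both cell types lie about 5 kb upstream of MYOD1 and MYOG and 10 to 11 kb downstream of MYF5, while the 3514 bp YAP-ERMS interval upstream of Myf5 has no RD interval near it.

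Peaks of the 2 cell types at like distances from the same gene were then set side by side. No alignment between the genomes was made, so a like distance does not show that the sequence is the same. Within 2 kb of the distance of a YAP-ERMS peak lay 7 of the 17 RD peaks at MYOG (41.2%), 4 of the 8 at MYF5 with MYF6 (50%) and 3 of the 6 at MYOD1 (50%). The share of all positions in the window that lay as close to such a distance was 16.9%, 18.6% and 12.6%. Taken from the other list, 6 of 14 YAP-ERMS peaks at MYOG (42.9%), 3 of 16 at MYF5 with MYF6 (18.8%) and 3 of 11 at MYOD1 (27.3%) lay as close to an RD peak, against 18.3%, 9.00% and 5.73% of positions. In total 14 of 31 RD peaks (45.2%) and 12 of 41 YAP-ERMS peaks (29.3%) had such a partner. Neighbouring peaks could share a partner, as the RD peaks 129 and 131 kb upstream of MYF5 shared the same YAP-ERMS peak. The share of positions does not allow for such grouping of peaks. The share of positions treats the whole window alike, while peaks in both lists lay on the upstream side at MYOD1, and the part this plays was not tested.

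By the starts as given, the closest partners at MYOG lay 5.16 kb upstream in RD, with a score of 211, and 5.29 kb upstream in YAP-ERMS, with a score of 602. The peaks beside the start were 0.502 and 0.658 kb upstream. At MYOD1 the RD peak at 4.87 kb, with a score of 209, stood beside the YAP-ERMS peak at 5.43 kb, with a score of 546.5. Farther out, the RD peak at 35.9 kb, with a score of 490, had YAP-ERMS peaks on both sides of its distance, at 34.6 and 36.8 kb. At MYF5 the RD peak at 131 kb upstream and the YAP-ERMS peak at that distance differed by 0.159 kb as given, with scores of 133 and 1015. Differences this small are below the precision of the starts. Downstream the RD peak at 11.1 kb and the YAP-ERMS peak at 10.3 kb had scores of 316 and 153. The single highest scoring peaks were not partners: the highest scoring RD peak at each of the 3 loci, 123 kb upstream of MYF5, 31.3 kb upstream of MYOD1 and 127 kb downstream of MYOG, matched the highest scoring YAP-ERMS peak at none of them.

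Over all 3 loci the scores of the members ran from 81.8 to 1149 with a median of 316 in RD, and from 83.0 to 2420 with a median of 177 in YAP-ERMS. Above the list's median were 18 of 31 RD peaks (58.1%) and 18 of 41 YAP-ERMS peaks (43.9%), against 50% of each list by construction. Scores above 1000 were held by 1 of the RD peaks and 4 of the YAP-ERMS peaks, where 5.47% and 7.38% of the lists reached that value. By locus the median was 251, 434 and 184 for MYF5 with MYF6, MYOD1 and MYOG in RD, and 169, 286 and 149 in YAP-ERMS. In both lists MYOD1 had the highest median and MYOG the lowest, and the locus with the highest single score was MYF5 with MYF6. Windows with a score as high as the best at MYF5 with MYF6 made up 7.79% in RD and 3.75% in YAP-ERMS. For MYOD1 they made up 15.8% and 22.4%, and for MYOG in YAP-ERMS 31.2%.

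**Figure D4:**
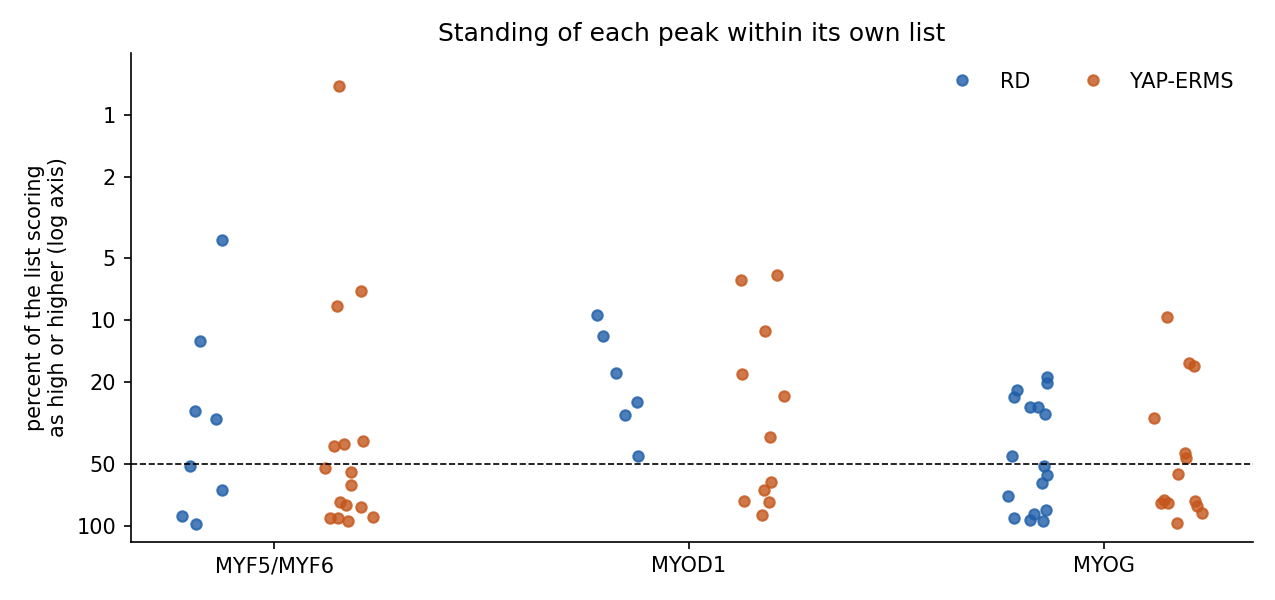
Standing of each peak within its own list, as the percent of the list that scores as high or higher (vertical log axis, highest scores at the top), by locus, for RD (blue) and YAP-ERMS (orange). Each point is 1 peak, its sideways place within a group is arbitrary, and the dashed line is at 50%, so the 6 RD peaks at MYOD1 all lie above the line while the other groups spread to both sides.

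The median peak width was close to that of the list in YAP-ERMS and above it in RD. The RD members had a median width of 406 bp and the YAP-ERMS members one of 1081 bp, against 335 and 1083 bp over the lists. Set against peaks of like score in the same list, the median member was 1.07 times as wide in RD and 1.06 times in YAP-ERMS. The narrowest for their score were the YAP-ERMS peaks 139 kb upstream of Myf5, at 0.577 times, and 5.43 kb upstream of Myod1, at 0.699 times. Both were picked with their widths known.

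The edge of the window decided few peaks of high score. Just inside it lay, in RD, the peak 137 kb upstream of MYF5 with a score of 622, and just outside it one at 152 kb with a score of 429. In YAP-ERMS a peak 143 kb upstream of Myf5 with a score of 92.0 was inside and one at 152 kb with a score of 254 was outside, as was a peak 165 kb downstream with a score of 920. Upstream of Myog the last peak inside, at 130 kb, had a score of 110. The next lay 190 kb upstream at chr1:135995146-135998324 and had a score of 3100, a value that many peaks of that list share exactly.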

How the data were processed

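Binding of TEAD was measured by ChIP-seq in 4 libraries. Bowtie2, hg19 and mm9 are named in the submitters' processing notes. The authors deposited 1 list of peak positions per cell type, RD against IgG and YAP-ERMS against input, with a score per peak, and the peak names are those MACS writes. The lowest score is 80 in both lists, which is the p-value limit stated in the lists' names when the score is read as 10 times the negative log10 of p. Tool versions, read filters and library depths were not stated in those sources.

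Peaks were taken by midpoint within 150 kb of starts given to 1 kb: chr12 at 81.111, chr11 at 17.741 and chr1 at 203.055 Mb (hg19), and chr10 at 106.922, chr7 at 53.632 and chr1 at 136.187 Mb (mm9), for MYF5 with MYF6, MYOD1 and MYOG. Human strands of MYF5, MYF6 and MYOG came from RefSeq, the others from general knowledge. All peaks of a locus were named where there were 10 or fewer, otherwise the 10 highest scoring and the nearest on each side. Background windows of 300 kb left out Y, random and unplaced sequences. Width at like score used the median of 201 peaks neighbouring in score. Promoters of 3 of the 4 genes matched RefSeq. Positions are 1-based. Counting used pandas 2.3.3 and numpy 2.4.6 under Python 3.11.15, intervals used scipy 1.17.1, and the counting steps were tested on simulated data. No p-values were computed, since each group has 1 library. The members and lists were chosen with earlier results of these data known. The planned myogenic pathway genes beyond these 4 need gene positions of hg19 and mm9 and were not analysed here. Alternatives were the score limit, the window, overlap, joining, the start position and the background.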

Additional observations from a re-analysis of the deposited data

How the results depend on the processing

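Values that moved under an alternative are given in the order MYF5 with MYF6, MYOD1, MYOG, and all others stayed as reported within 1.5 times (counts), within 0.5 kb (nearest peak), unchanged (highest score) or inside a Wilson 95% interval (share of windows). At scores of 160 and above the counts were 5 and 10 for MYF5 with MYF6 and MYOG in RD, and 8, 6 and 7 in YAP-ERMS. At 320 and above they were 3 and 7 for the same loci in RD, and 3, 5 and 4 in YAP-ERMS. Within 50 kb of the start they were 2 and 8 for MYF5 with MYF6 and MYOG in RD, and 6 and 7 in YAP-ERMS. Within 100 kb MYF5 with MYF6 had 3 in RD and 9 in YAP-ERMS. So the RD count at MYF5 with MYF6 rests on peaks more than 100 kb away.

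The nearest peak at 160 and above lay at 14.9, 5.43 and 5.29 kb in YAP-ERMS. At 320 and above it lay at 12.6 kb for MYF5 and 31.3 kb for MYOD1 in RD, and at 18.4, 5.43 and 5.29 kb in YAP-ERMS. The YAP-ERMS peaks beside the starts of Myod1 and Myog are therefore lost at the stricter limits, while the RD peak beside MYOG passes both. That RD distance became 1.08 kb with peaks within 1 kb joined and 1.00 kb with the start moved down by 0.5 kb. The highest score was 344 within 50 kb and 344 within 100 kb for MYF5 in RD, 420 within 50 kb and 420 within 100 kb for MYOG in RD, and 602 within 50 kb for MYOG in YAP-ERMS.

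Over windows with at least 1 peak, the shares with as many peaks were 13.0%, 22.5% and 1.05% in RD and 8.11%, 23.2% and 12.6% in YAP-ERMS, since the empty windows leave the denominator. The number of RD peaks with a YAP-ERMS peak at a like distance was 14 within 2 kb, 7 within 1 kb and 20 within 5 kb, widths chosen after seeing the data. At 1 kb the limit is no wider than the error that the rounding of both starts can bring. The share of positions as close was 8.91% at 1 kb, 16.0% at 2 kb and 32.0% at 5 kb. No paired analysis was possible because each group has 1 library. A locus without a peak may still be bound below the p-value limit, and the depth that sets that limit is unknown.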

Other observations

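Peaks per Mb were followed over windows of growing length around the starts. At MYOG in RD there were 80 within 25 kb of the start, 56.7 within 150 kb and 22 within 500 kb, and 17 of the 22 peaks within 500 kb lay inside 150 kb. At MYOG in YAP-ERMS there were likewise 80 within 25 kb, then 46.7 within 150 kb and 42 within 500 kb. At MYOD1 the values were 20, 20 and 8 in RD, with 40 within 50 kb, and 80, 36.7 and 25 in YAP-ERMS. At MYF5 with MYF6 they were 40, 26.7 and 16 in RD and 80, 53.3 and 48 in YAP-ERMS. The density within 500 kb was thus lower than that within 25 kb at every locus in both lists. The fall was not steady everywhere. At MYF5 with MYF6 in RD the value was 15 within 100 kb and 26.7 within 300 kb, and in YAP-ERMS it was 55 within 300 kb. As a background, windows of 300 kb held a mean of 2.31 peaks in RD and 5.49 in YAP-ERMS. The same fall around other positions was not measured, so it is not known whether it is particular to these genes. Values within 25 kb rest on 1 to 4 peaks each. The RD peaks around MYF5 within 500 kb numbered 16, all of them within 300 kb.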
